A study of Mus musculus with 4 samples.

Results

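Pmp22 and the epithelial membrane protein genes Emp1, Emp2 and Emp3 were followed in RNA sequencing of 2 mouse keratinocyte lines. The 4 genes were taken by name from a table of 23420 genes, of which 12479 passed the count filter. All 4 were among these, Pmp22 through its MK1 counts alone. Pmp22 was chosen by its counts, because it had none in MK2, so its values are a description without a test, and the 3 Emp genes came with it as its family. MK2, with 2 biological replicate cultures, was set against MK1, with 2 replicate cultures. Both are cultured keratinocyte lines, the epithelial cells that form the epidermis. The labels give no allele, agent, strain, age or passage for either, and each group is 1 line, so the spread between libraries is that between cultures of a single line. The series title names p63, a transcription factor of stratified epithelia, and compares the epidermis of mouse and human.

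The proteins of this family cross the membrane with 4 helices and belong to the same superfamily as the claudins of tight junctions. PMP22 is a protein of compact myelin in peripheral nerve, where changes in its gene dosage cause inherited neuropathies, and it is also found at cell junctions of epithelia. EMP1 is expressed in squamous and other epithelia, EMP2 acts on the trafficking of integrins and on caveolins and focal adhesion kinase, and EMP3 is found in blood cells and in many tumours. In human embryonic kidney cells the EMP proteins and PMP22 were found to associate with the ATP-gated channel encoded by P2rx7.

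Library totals ran from 25237391 to 28601806 counts in MK2 and from 26693849 to 30261111 counts in MK1. Levels are given as CPM, read counts per 1e+06 counts of the scaled library, and the 4 genes are compared with each other as RPKM, which also divides by gene length in kilobases. All 10 listed markers of basal keratinocytes had a mean of 1 CPM or more in both lines, 1 of them rose, 2 fell and 7 were not called in MK2, where 54.6% of all tested genes were called. Itga6 was the marker that rose, and Col17a1 and Lamb3 were those that fell. Col17a1 stood at 1395 and 1560 CPM in MK2, against 3287 and 2876 CPM in MK1. Lamb3 stood at 531 and 659 CPM in MK2, against 1023 and 997 CPM in MK1. Krt14, a basal keratin that was not called, stood at 9176 and 7594 CPM in MK2, against 8706 and 8814 CPM in MK1. Krt15, another keratin of that list, stood at 27.9 and 0.247 CPM in the MK2 cultures, against 4.77 and 4.47 CPM in MK1, so that its MK2 mean rested on 1 culture.

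The start regions of the 4 genes are shown because Pmp22 was the member without reads in MK2. Each line gives 250 bases before and 50 bases from an annotated start site, 5′ to 3′ on the gene's strand (RefSeq, GRCm38.p6, the assembly also called mm10). Windows lie at chr11:63131207-63131506 on the plus strand for Pmp22, chr6:135362681-135362980 on the plus strand for Emp1, chr16:10313919-10314218 on the minus strand for Emp2 and chr7:45921377-45921676 on the minus strand for Emp3. Capitals mark the GC box GGGCGG, the AP-1 motif TGANTCA and the TATA motif TATAAA on either strand.
Pmp22: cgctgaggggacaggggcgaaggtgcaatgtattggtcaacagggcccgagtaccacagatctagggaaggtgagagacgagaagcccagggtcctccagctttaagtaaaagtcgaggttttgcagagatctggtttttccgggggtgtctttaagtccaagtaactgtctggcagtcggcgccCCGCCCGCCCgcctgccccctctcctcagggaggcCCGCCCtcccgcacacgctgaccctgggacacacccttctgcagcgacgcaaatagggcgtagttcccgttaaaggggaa
Emp1: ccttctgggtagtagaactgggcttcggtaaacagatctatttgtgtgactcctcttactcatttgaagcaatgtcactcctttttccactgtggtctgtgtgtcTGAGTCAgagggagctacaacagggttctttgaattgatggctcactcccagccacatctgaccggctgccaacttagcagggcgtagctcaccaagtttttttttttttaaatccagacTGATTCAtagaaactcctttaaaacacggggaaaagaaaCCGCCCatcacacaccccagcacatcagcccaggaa
Emp2: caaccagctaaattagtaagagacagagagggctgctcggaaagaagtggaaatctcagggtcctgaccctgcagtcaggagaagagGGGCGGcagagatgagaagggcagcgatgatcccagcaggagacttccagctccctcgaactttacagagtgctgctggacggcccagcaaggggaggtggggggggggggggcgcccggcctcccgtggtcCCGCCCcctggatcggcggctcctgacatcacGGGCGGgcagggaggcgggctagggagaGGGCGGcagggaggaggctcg
Emp3: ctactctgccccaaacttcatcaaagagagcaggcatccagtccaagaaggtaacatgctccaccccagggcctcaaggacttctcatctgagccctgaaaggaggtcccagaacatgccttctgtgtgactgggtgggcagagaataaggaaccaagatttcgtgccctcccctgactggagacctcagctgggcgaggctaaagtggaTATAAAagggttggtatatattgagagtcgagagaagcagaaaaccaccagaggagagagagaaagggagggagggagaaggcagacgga

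The Pmp22 window held 18 CpG dinucleotides, 0.667 of the number its base composition predicts, and the Emp2 window held 16, at 0.525. The Emp1 and Emp3 windows were poorer, with 5 and 4 CpG and ratios of 0.310 and 0.196, and the median over 32851 such windows of all genes was 0.384. Windows at the other annotated starts had ratios of 0.158, 0.606 and 0.766 for Pmp22, 0.174 for Emp1 and 0.081 for Emp3, so the ratio depends on the start taken. GC boxes were found 3 times in the Pmp22 window, the first and the second sharing 2 bases, 4 times in the Emp2 window and once in the Emp1 window, and 35.7% of all windows held at least 1. The AP-1 motif, bound by Jun and Fos proteins, occurred only in the Emp1 window among the 4, starting 145 and 25 bases before the start site, and 7.81% of all windows held it. The TATA motif occurred only in the Emp3 window among the 4, 40 bases before the start site, against 13.6% of all windows. The motif GGAATG of TEAD factors, searched on both strands, was in none of these 4 windows and in 14.7% of all windows. These matches describe the letters of the windows and are not measured binding.

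Pmp22 (chromosome 11, 63131510 to 63159546 on mm10, plus strand, 5 counted exons) was expressed in MK1 and had no read in MK2. It had 0 and 0 counts in the MK2 libraries, against 2060 and 2180 counts in the MK1 libraries. As levels this was 0 CPM in both MK2 libraries, against 67.7 and 81.2 CPM in MK1, with a mean of 74.5 ± 9.49 CPM in MK1 (SD, n = 2 cultures, as for every SD here). A count of 0 allows up to 3 counts, which is 0.119 and 0.106 CPM in the 2 MK2 libraries and covers counting error only. Set against 3 counts over both MK2 libraries, Pmp22 was at least 1329-fold lower in MK2 by the MK1 mean. By MK1 replicates 1 and 2 taken singly the bound was 1209-fold and 1448-fold. Fewer cells with a transcript and less transcript per cell cannot be told apart in such bulk libraries.

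RefSeq places 4 start sites for Pmp22, and the counted gene model begins 53 bases after one of them. Of the 5 counted exons, 4 lie downstream of all 4 start sites, and no read was counted in any of the 5 in MK2. In MK1 Pmp22 was no rare transcript, ranking 2155 and 1801 by per-length level among all genes of the table in the 2 libraries. At the mean MK1 level of Pmp22 in CPM, which is not scaled for length, or above there were 3075 genes. Of these, 2 had no count in MK2, Pmp22 itself, which was chosen for that, and Cldn6. Cldn6, a claudin of the same superfamily, stood at 124 ± 5.96 CPM in MK1. A cut at 0 counts leaves out genes with almost none in MK2. St6gal1 stood at 0.0397 and 0.106 CPM in MK2, against 86.3 and 93.3 CPM in MK1. Hif3a stood at 0.079 and 0.141 CPM in MK2, against 95.6 and 103.7 CPM in MK1.

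**Figure D1:**
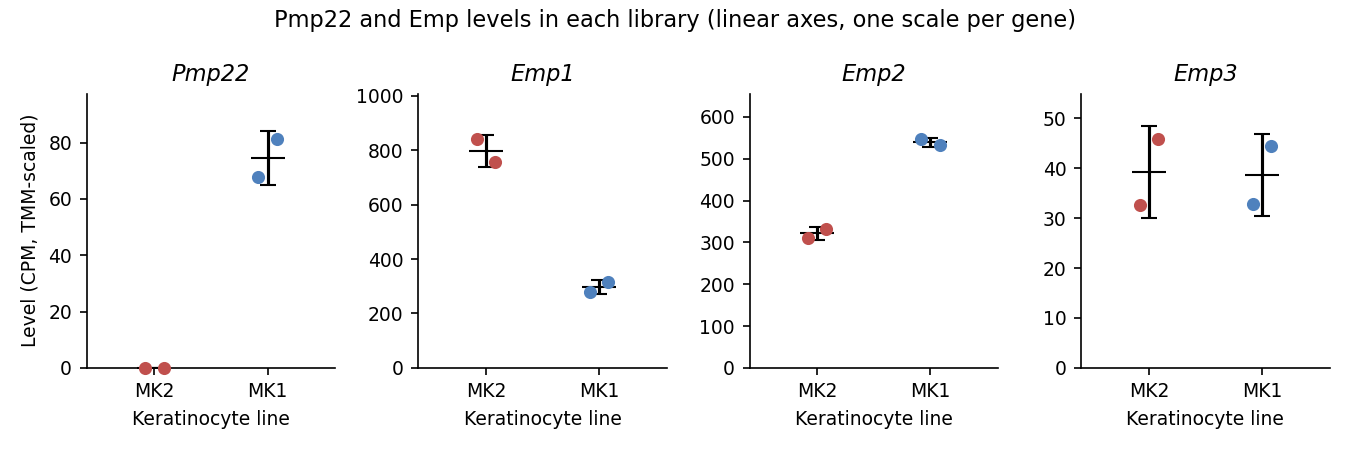
Level of each gene in CPM (y axis, linear from 0, a scale of its own for each gene) in the MK2 and MK1 lines (x axis). Points are libraries, horizontal marks are means and bars are SD over 2 cultures. Pmp22 is at 0 in both MK2 libraries and at 67.7 and 81.2 CPM in MK1, Emp1 is higher and Emp2 lower in MK2, and the Emp3 points of the lines overlap.

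Emp1 (chromosome 6, 135362931 to 135383173, plus strand, 5 counted exons) was higher in MK2. It stood at 841 and 757 CPM in the MK2 libraries, against 280.4 and 316 CPM in the MK1 libraries. Both MK2 libraries were thus above both MK1 libraries, and the members of each pair differed by 10.4% and 11.9% of their mean in MK2 and MK1. Means were 799 ± 58.9 CPM in MK2 and 298 ± 25.2 CPM in MK1. The log2 fold change was 1.42 (SE 0.12, 95% interval 1.14 to 1.70), a level 2.68-fold that of MK1, with an adjusted p of 1.85e-04 (edgeR's quasi-likelihood test, Benjamini-Hochberg adjusted over all tested genes).

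Emp2 (chromosome 16, 10281749 to 10313968, minus strand, 5 counted exons) was lower in MK2. It stood at 309.8 and 333 CPM in the MK2 libraries, against 547 and 532 CPM in the MK1 libraries. The groups did not overlap, and the pairs differed by 7.14% of their mean in MK2 and 2.71% in MK1. Means were 321 ± 16.2 CPM in MK2 and 539 ± 10.3 CPM in MK1, and the log2 fold change was -0.75 (SE 0.10, 95% interval -0.99 to -0.50, edgeR adjusted p = 0.00129). Emp2 in MK2 was at 0.596 of its MK1 level.

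Emp3 (chromosome 7, 45918023 to 45921426, minus strand, 6 counted exons) showed no difference beyond the spread of the cultures. It stood at 32.7 and 45.8 CPM in the MK2 libraries, against 32.8 and 44.5 CPM in the MK1 libraries. A low and a high culture occurred in each line, and the groups overlapped almost fully. Replicates differed by 33.5% of their mean in MK2 and by 30.2% in MK1, more than for either other Emp gene. The log2 fold change was 0.02 (SE 0.20, 95% interval -0.46 to 0.51, edgeR adjusted p = 0.926). Its sign changed without MK1 replicate 1 (-0.18) and without MK2 replicate 2 (-0.24).

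Of the 3 Emp genes 1 rose, 1 fell and 1 was not called. In the same test 54.6% of all tested genes were called, 25.9% of all as higher and 28.6% as lower in MK2, so that being called was common in this comparison. CPM values of the lines did not overlap for 80.5% of all tested genes. The Emp1 and Emp2 calls held in all 10 alternatives each, with log2 fold changes from 1.33 to 1.51 for Emp1 and from -0.80 to -0.69 for Emp2. The median log2 fold change of all tested genes was -0.01.

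**Figure D2:**
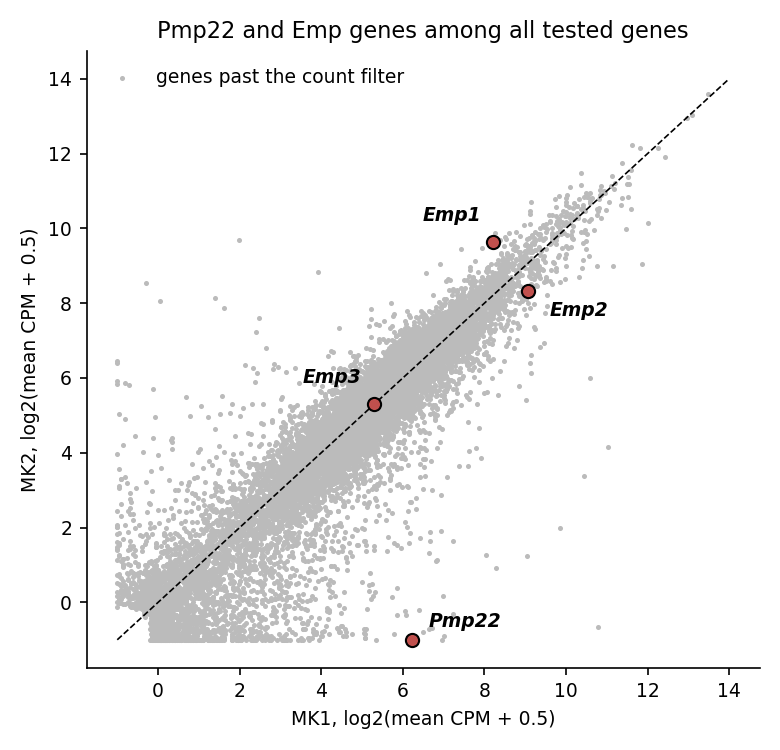
Mean level in MK2 (y axis) against mean level in MK1 (x axis), both as log2(mean CPM + 0.5), with grey points for genes past the count filter and red points for the 4 family members. The dashed line marks equal levels. Emp1 lies above it, Emp2 below it, Emp3 on it, and Pmp22 at the lower edge, where genes without counts in MK2 lie.

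Per length, the order of the family differed between the lines. In MK2 Emp1 stood first at 294 ± 21.6 RPKM, then Emp2 at 93.4 ± 4.71 RPKM, then Emp3 at 40.4 ± 9.57 RPKM, and Pmp22 had no read. In MK1 Emp2 stood first at 157 ± 3.01 RPKM and Emp1 was next at 109.6 ± 9.25 RPKM. Pmp22 at 41.3 ± 5.27 RPKM and Emp3 at 39.7 ± 8.49 RPKM were last in MK1 and did not differ beyond their spread. The ratio of Emp1 to Emp2, as RPKM within a library, was 3.43 and 2.88 in MK2, against 0.649 and 0.751 in MK1, so the more abundant of the pair was Emp1 in each MK2 library and Emp2 in each MK1 library.

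Emp1 made up 71.4% and 65.9% of the summed per-length level of the family in MK2, against 30.9% and 32.1% in MK1. The Emp2 share was 20.8% and 22.9% in MK2, against 47.7% and 42.8% in MK1. Pmp22 supplied 11.3% and 12.5% of the family level in the MK1 libraries. The sum over the 4 genes was 433 and 422 RPKM in MK2, against 333 and 362 RPKM in MK1, so the sum was higher in both MK2 libraries although 2 of its genes were lower there. By per-length level Emp1 ranked 205 and 239 among all genes in the MK2 libraries, against 684 and 611 in the MK1 libraries.

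**Figure D3:**
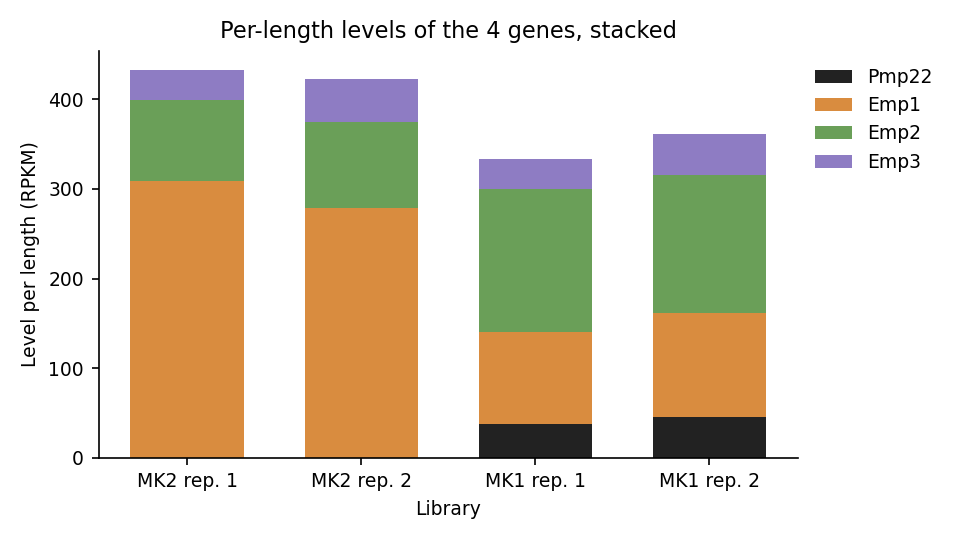
Per-length level (RPKM, y axis from 0) of the 4 genes stacked for each library (x axis, MK2 libraries on the left). Emp1 takes the largest part of the MK2 bars and Emp2 that of the MK1 bars, and the Pmp22 part is visible in MK1 alone.

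Genes around each member were examined on the chromosome, 3 on either side. None of these 24 genes overlapped a member (0 of 24), 13 were tested, 4 rose and 6 fell in MK2, where 54.6% of all tested genes were called. Pbp2 was let through the count filter by MK1 and Syngr4 by MK2, which fixed the direction of both. Atf7ip2, with 13 and 9 counts in MK2 against 37 and 37 in MK1, was also let through by MK1, which favoured a fall. Tekt3, the nearest gene to Pmp22 at 36.5 kb before it, had 0 counts in all 4 libraries, and Cdrt4 had 1 count in 1 MK2 library. Tvp23b, a Golgi membrane protein gene 236.3 kb before Pmp22, stood at 47.1 and 46.3 CPM in MK2, against 51.5 and 54.2 CPM in MK1, and was not called (log2 change -0.18, edgeR adjusted p = 0.181). Cox10, a heme synthesis gene 803.1 kb after Pmp22, was higher in MK2 at 38.3 and 33.4 CPM, against 22.0 and 21.2 CPM in MK1 (log2 change 0.73, edgeR adjusted p = 0.00315). The expressed genes on either side of Pmp22 thus had reads in both lines.

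Hs3st3b1, a heparan sulfate sulfotransferase gene 725.1 kb after Pmp22, stood at 3.30 and 2.15 CPM in MK2, against 4.74 and 5.77 CPM in MK1. It fell by 0.95 on the log2 scale (edgeR adjusted p = 0.0218), but the adjusted p was 0.0709 and 0.136 when MK1 replicate 1 or 2 was left out, and 0.0660 without MK2 replicate 2. The transcript 2810001G20Rik, 919.9 kb after Pmp22, rose by 1.30 (edgeR adjusted p = 0.00513), with an adjusted p of 0.0541 when MK1 replicate 1 was left out. Around Emp1, the gene Pbp2, which lies 52.5 kb before it and encodes a phosphatidylethanolamine-binding protein, had 0 counts in both MK2 libraries, against 33 and 34 counts (1.09 and 1.27 CPM) in MK1. Grin2b, 346.6 kb after Emp1, had at most 3 counts in any library, and 8430419L09Rik fell by 0.66 (edgeR adjusted p = 0.00811; adjusted p = 0.0707 without MK1 replicate 1).

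Around Emp2, Nubp1, an iron-sulfur cluster assembly gene 98 kb after it in chromosome order, moved opposite to Emp2, with 59.7 and 56.3 CPM in MK2, against 35.8 and 35.8 CPM in MK1 (log2 change 0.70, edgeR adjusted p = 0.00176). Tmem143, 0.6 kb before Emp3 in chromosome order, stood at 7.63 and 7.72 CPM in MK2, against 14.8 and 16.01 CPM in MK1, and fell by 1.01 (edgeR adjusted p = 0.00179). Nomo1, a gene of the endoplasmic reticulum 112.3 kb beyond Emp3, was not called (log2 change 0.04, edgeR adjusted p = 0.778). The calls of Atf7ip2 beside Emp2, a gene let through the count filter by MK1, and of Kdelr1 and Syngr4 beside Emp3 ended in 1 or more alternatives. For Atf7ip2 the adjusted p was 0.0617 without MK1 replicate 1 and 0.0749 without MK1 replicate 2, and for Kdelr1 it was 0.0645 and 0.0690 without these libraries in edgeR's test. For Syngr4 it was 0.132 and 0.143 without them and 0.0820 without MK2 replicate 2.

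**Figure D4:**
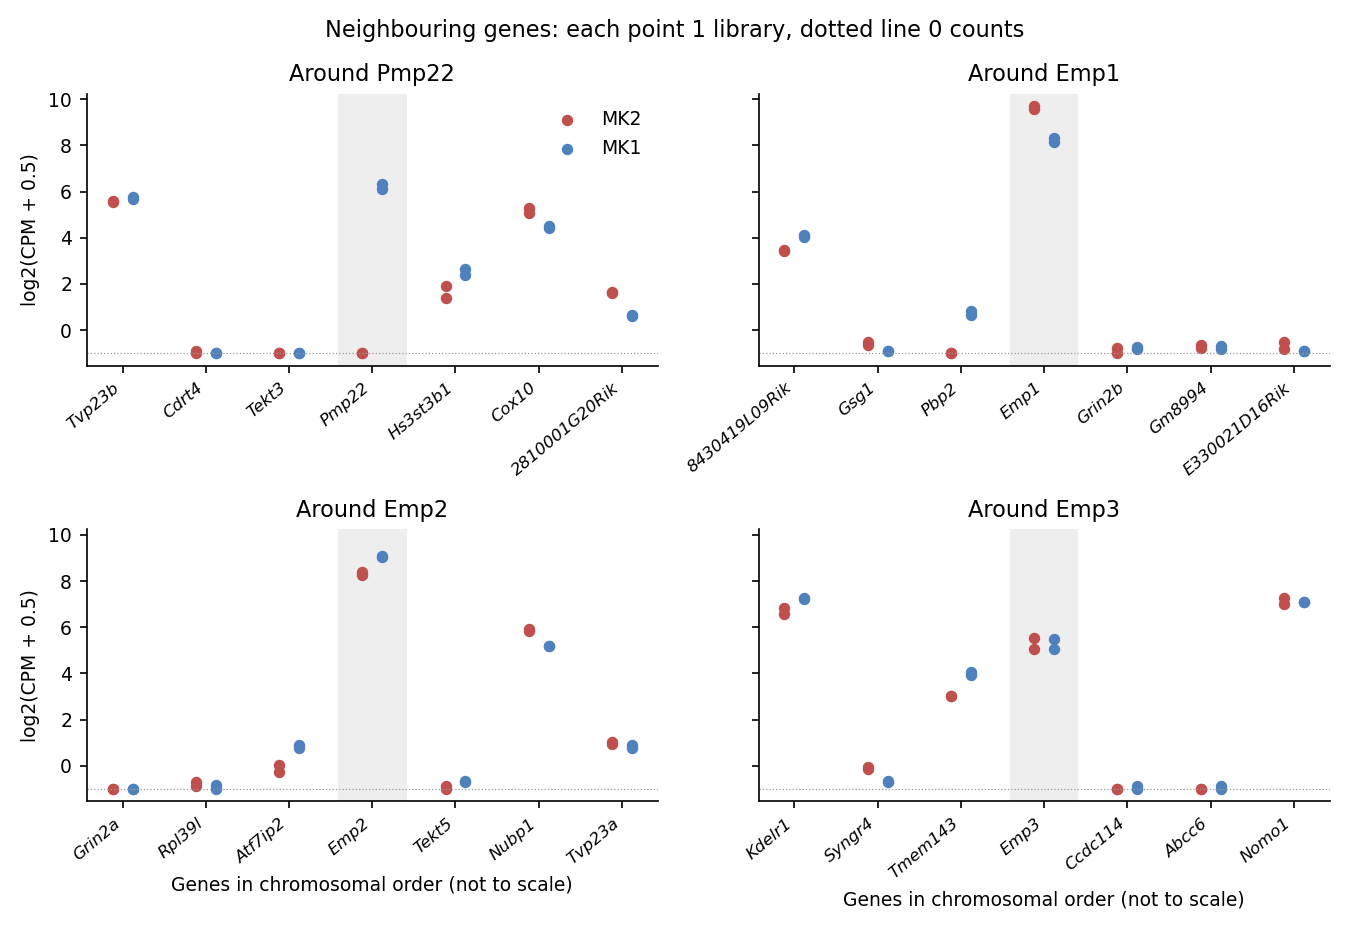
Level as log2(CPM + 0.5) (y axis) of the 4 genes (shaded) and of 3 genes on either side in chromosomal order (x axis, not to scale), with 1 point for each library and MK2 left of MK1. The dotted line is 0 counts. Around Pmp22 the expressed neighbours Tvp23b, Hs3st3b1, Cox10 and 2810001G20Rik have reads in both lines, while Pmp22 is at 0 counts in MK2.

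Beyond the 4 genes, the wider list of claudin-like tetraspan genes had few members with reads. Of 27 listed genes outside the claudins 26 were in the table, 15 had 0 counts in all 4 libraries, and 4 were tested. Of these, Tmem47 and Tmem204 were let through the count filter by MK1, which fixed their direction, Perp fell and Cldnd1 was not called (edgeR adjusted p = 0.155). Perp, a desmosome-associated p53 and p63 target, stood highest in CPM, with 1281 and 1213 CPM in MK2, against 1725 and 1975 CPM in MK1 (log2 change -0.57, edgeR adjusted p = 0.00566; adjusted p = 0.0660 without MK1 replicate 2). Tmem47, which is found at epithelial junctions, had 0 and 1 counts in the MK2 libraries, against 404 and 303 counts (13.3 and 11.3 CPM) in the MK1 libraries. It was 661-fold lower in MK2 by its counts (95% counting interval 118 to 26100). Tmem204, named after its values were seen, stood at 0.199 and 0.212 CPM in MK2, against 0.493 and 0.596 CPM in MK1, and its call (edgeR adjusted p = 0.0284) ended without any 1 of the 4 libraries (adjusted p from 0.0945 to 0.186). Without MK1 replicate 2 only Tmem47 of this list was called (1 gene).

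Partners of the proteins moved in both directions, and 69.2% of the tested ones were called, where 54.6% of all tested genes were called. Of 15 listed partner and trafficking genes 13 were tested, 4 rose and 5 fell (median -0.04, against -0.01 over all tested genes), and without MK1 replicate 1 the count of called genes was 4. P2rx7, the shared partner, had 0 and 5 counts in MK2, against 3 and 4 counts in MK1, and was not tested. The integrin genes Itgb1 and Itga6 rose by 1.03 (edgeR adjusted p = 5.11e-04) and 0.83 (adjusted p = 7.39e-04) on the log2 scale. Itga6, whose product forms with the Itgb4 product the hemidesmosome integrin reported to bind PMP22, stood at 565 and 572 CPM in MK2, against 321 and 320.0 CPM in MK1. Itgb4 stood at 677 and 1012 CPM in MK2, against 1217 and 1085 CPM in MK1, and was not called (log2 change -0.45, edgeR adjusted p = 0.0865). Itgb5, another integrin chain of the list, fell by 0.49 (edgeR adjusted p = 0.00786), and Itgav was not called (adjusted p = 0.763). Cav1, which encodes a caveolin, stood at 623 and 744 CPM in MK2, against 414 and 448 CPM in MK1 (log2 change 0.67, edgeR adjusted p = 0.00434). Ptk2, which encodes focal adhesion kinase, stood at 93.0 and 87.5 CPM in MK2, against 72.9 and 88.7 CPM in MK1, and was not called (edgeR adjusted p = 0.317).

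Ocln and Tjp1 were the members of the partner list with the largest falls. Ocln, which encodes the junction protein occludin, stood at 10.3 and 14.4 CPM in MK2, against 36.9 and 33.0 CPM in MK1 (edgeR adjusted p = 8.22e-04). Tjp1, which encodes the scaffold of tight junctions, stood at 286 and 287 CPM in MK2, against 526 and 502 CPM in MK1, and fell by 0.84 (edgeR adjusted p = 7.27e-04). For both genes each MK2 library lay below each MK1 library.

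Among factors known to act on Pmp22 in Schwann cells of rat or mouse, the pair best known for myelin genes was at the floor in both lines. Sox10 had 0 and 0 counts in MK2, against 1 and 0 in MK1, and Egr2 had 0 and 1 counts in MK2, against 1 and 0 in MK1, also in the line that expressed Pmp22. Of 11 listed regulators 9 were tested, 3 rose and 1 fell (median 0.13, against -0.01 over all tested genes). That was 44.4% called, where 54.6% of all tested genes were called. Tead2 and Tead4, TEAD factors of the Hippo pathway, rose by 1.91 (edgeR adjusted p = 4.63e-04) and 0.95 (adjusted p = 5.70e-04). Tead2 stood at 31.4 and 44.8 CPM in MK2, against 9.34 and 10.98 CPM in MK1, while Tead1 at 164 and 141 CPM in MK2, against 163 and 154 CPM in MK1, was not called (edgeR adjusted p = 0.695). Wwtr1, which encodes the TEAD coactivator TAZ, stood at 29.0 and 32.5 CPM in MK2, against 63.8 and 53.4 CPM in MK1. It fell by 0.93 (edgeR adjusted p = 0.00144). Yap1, which encodes the TEAD coactivator YAP, was more abundant and was not called (edgeR adjusted p = 0.449). Its levels were 225 and 182.5 CPM in MK2, against 197 and 176 CPM in MK1. Pou3f1, a POU factor of promyelinating Schwann cells and of epidermis, stood at 26.8 and 18.9 CPM in MK2, against 8.45 and 8.01 CPM in MK1, a rise of 1.47 (edgeR adjusted p = 0.00125).

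Pmp22 was also described as a growth arrest-specific gene in fibroblasts, so the genes named with it were followed. Of 5 listed, 4 were tested, 1 rose and 2 fell (median -0.24, against -0.01 over all tested genes), where 54.6% of all tested genes were called. Gas6, a ligand of TAM receptor kinases, stood at 66.1 and 78.6 CPM in MK2, against 172 and 145 CPM in MK1, and fell by 1.13 (edgeR adjusted p = 8.04e-04). Gas5, a noncoding host of small nucleolar RNAs, fell by 0.31 (edgeR adjusted p = 0.0355), but the adjusted p was 0.126 and 0.179 when MK1 replicate 1 or 2 was left out, 0.0853 without MK2 replicate 1 and 0.0635 with the replicate block. Gas7 rose by 0.52 (edgeR adjusted p = 0.0333), but the adjusted p was 0.162 and 0.144 when MK1 replicate 1 or 2 was left out, and 0.0938 without MK2 replicate 1. The count of called genes in this list was 1 without each of these 3 libraries.

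**Figure D5:**
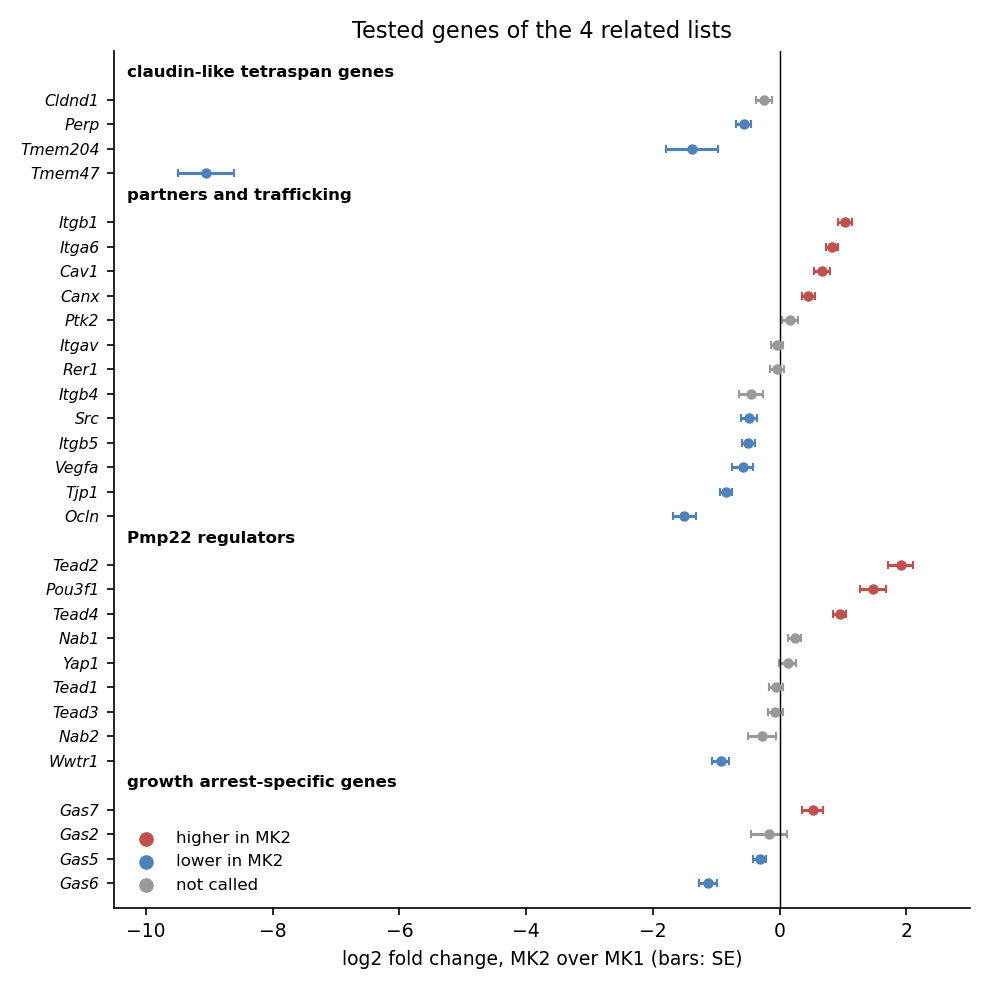
Log2 fold change of MK2 over MK1 (x axis) with SE bars for the tested genes of the 4 related lists (y axis), coloured by call at an adjusted p of 0.05. The fitted value of Tmem47 rests on 1 count in MK2. Partner genes lie on both sides of 0, with Itgb1 highest at 1.03 and Ocln lowest among them.

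Markers of other cell types were set beside the Pmp22 result, since it is best known from Schwann cells. Of 16 Schwann cell and myelin markers, the defining genes Mag, Cdh19 and Fabp7 had 0 counts in all libraries, and Sox10 was at most at 0.0329 CPM in any library. The summed level of that list was 158 and 139 CPM in MK2, against 315 and 332 CPM in MK1. Of its 6 tested members 4 were called lower in MK2, where 54.6% of all tested genes were called and 28.6% were lower. Dhh, a hedgehog ligand, was let through the count filter by MK1, which fixed its direction, so it is no part of that comparison. It had 0 counts in both MK2 libraries, against 130 and 126 counts in MK1. The others were Mbp, Cnp and Erbb3. Mbp is a myelin protein gene whose locus also gives transcripts outside myelin. It stood at 119.5 and 106 CPM in MK2, against 221 and 229 CPM in MK1. Cnp, a myelin phosphodiesterase gene, fell by 2.03 (edgeR adjusted p = 1.29e-04) and the receptor gene Erbb3 fell by 1.24 (adjusted p = 0.00120).

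Leukocyte transcripts were present in MK1, where 8 of 12 listed markers reached 1 CPM. Their sum was 2.54 and 3.42 CPM in MK2, against 51.4 and 48.4 CPM in MK1, and every tested member other than Cd68 was let through the count filter by MK1, which fixed its direction. Cd68, a macrophage marker, stood at 2.15 and 3.10 CPM in MK2, against 17.96 and 15.4 CPM in MK1 (edgeR adjusted p = 1.96e-04). The other myeloid markers of the list were low in MK1 too. Csf1r stood at 0.822 and 0.596 CPM in MK1, Lyz2 had 2 and 4 counts there, and Itgam had 4 and 2 counts. In MK2 Itgam had 2 and 3 counts. The B-cell genes Cd79b and Ms4a1 had 0 counts in both MK2 libraries, and Cd74, the class II invariant chain, had 3 and 0 counts, against 545 and 475 in MK1. Cd79b stood at 2.34 and 2.64 CPM in MK1. The fibroblast list summed to 13.9 and 11.7 CPM in MK2, against 29.1 and 36.3 CPM in MK1. Most of this sum was Fbln1, at 12.9 and 10.3 CPM in MK2, against 25.1 and 32.95 CPM in MK1. Dcn, Lum and Pdgfrb had 0 counts in all libraries, and Col1a1, Col1a2 and Col3a1 had at most 7 counts in any library. Of the 3 tested members of the list 2 fell (Pdgfra and Fbln1), where 54.6% of all tested genes were called. The counts of Pdgfra were 8 and 28 in MK2, against 98 and 68 in MK1, and MK1 let it through the count filter, which favoured a fall. Pdgfra had an edgeR adjusted p of 0.0742 when MK1 replicate 1 was left out.

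The melanocyte list summed to 3.54 and 3.98 CPM in MK2, against 6.05 and 5.36 CPM in MK1, with Dct and Kit at 0 counts in all libraries, and 1 of 3 tested members, Mitf, fell. The pigment genes Tyr and Pmel had reads in both lines, with Tyr at 1.79 and 2.43 CPM in MK2, against 1.58 and 1.15 CPM in MK1, and Pmel at 1.15 and 0.846 CPM in MK2, against 1.05 and 1.53 CPM in MK1, and neither was called (edgeR adjusted p = 0.119 and 0.382). The endothelial list summed to 25.4 and 27.5 CPM in MK2, against 17.9 and 15.1 CPM in MK1. Its defining genes Cdh5 and Emcn had 0 counts in all libraries, Pecam1 stood at 1.03 and 1.199 CPM in MK2, against 0.691 and 0.931 CPM in MK1, and 1 of 2 tested members, Kdr, rose (edgeR adjusted p = 0.00774; adjusted p = 0.0652 without MK1 replicate 2). Beside the calls in these marker lists, 54.6% of all tested genes were called, 25.9% of all as higher and 28.6% as lower in MK2. The part of any of these cell types in the levels of Pmp22 and the Emp genes was not tested.

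Genes with the most similar profiles were found by the Euclidean distance between log2(CPM + 0.5) values over the 4 libraries. The nearest to Pmp22 was St6gal1, a sialyltransferase gene, at a distance of 0.499, with 0.0397 and 0.106 CPM in MK2, against 86.3 and 93.3 CPM in MK1. Mall, which encodes a raft-associated membrane protein, and Hif3a, which encodes a hypoxia-inducible factor subunit, followed at 0.660 and 0.735. Nearest to Emp1 were Set, Ldha and Col4a1 (distances 0.253, 0.440 and 0.473), and Set, a histone chaperone gene, stood at 849.7 and 807 CPM in MK2, against 323 and 343 CPM in MK1. Nearest to Emp2 were Rab10, Ehd2 and Hif1a (0.223, 0.259 and 0.261). Rab10, a gene of vesicle transport, stood at 322 and 308 CPM in MK2, against 496 and 490.0 CPM in MK1. Nearest to Emp3 were Yif1b, Anxa6 and Fam45a (0.222, 0.243 and 0.278), and Yif1b stood at 35.8 and 43.0 CPM in MK2, against 33.2 and 39.8 CPM in MK1. Likeness over 4 libraries of 2 lines describes these libraries only.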

How the data were processed

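Total RNA of 4 cultures was sequenced from TruSeq libraries, per the labels' protocols. The deposited values are raw read counts per gene: per the file headers, TopHat alignments were counted over exons by gene name with featureCounts 1.4.6-p4 on the UCSC mm10 annotation, whereas the submitters' processing notes list featureCounts 1.5.0, DESeq2 1.10.1, Bowtie2 2.2.6 and TopHat2 2.0.13. The header's command sets no strand or multimapping option, so antisense or copied genes cannot be separated. It names the MK2 alignments MKU, and columns were matched by the sample titles. Of 23420 genes, 6644 had 0 counts throughout. Gene lengths, another deposited column, are in bases.

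The test was edgeR 4.0.16 under R 4.3.3 (filterByExpr with a minimum count of 10, TMM, quasi-likelihood F test, Benjamini-Hochberg at 0.05, two-sided), and the SE is the log2 change divided by the root of F. Intervals and floors on counts cover counting error only. In simulated data of the same size, with 12288 genes tested, 96% of 100 genes changed by 2-fold and 100% of 100 changed by 4-fold were found, as were 0.0165% of 12088 unchanged genes. The changed genes were drawn only from those at a mean of 10 CPM or more. These rates therefore do not cover genes below that level, or a comparison in which 54.6% of tested genes were called. Replicates differed by more than counting noise (median chi-square per gene 4.28 in MK2 and 2.87 in MK1), and none was counted as a duplicate. Members and lists were chosen with earlier results of these data known. The naming rule took the 4 genes, up to 4 called members with the largest changes in each list at 1 CPM or more, 3 neighbours on each side and 3 similar profiles for each gene. Of 117 listed symbols, 1 was not used and 2 were matched by synonym. Some listed genes are not reported here. Start windows came from the RefSeq table for all 4 genes. Alternatives covered scaling, the count filter, DESeq2 1.42.0, each library left out and the replicate number as a block.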

Additional observations from a re-analysis of the deposited data

How the results depend on the processing

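Emp1 and Emp2 kept their direction and call in each of 10 alternatives, with adjusted p up to 0.00712 and 0.0229. With libraries left out in turn, Emp3 ran from -0.24 to 0.26, Anxa6 from -0.15 to 0.18, Fam45a from -0.064 to 0.23, Yif1b from -0.028 to 0.24 and Nomo1 from -0.093 to 0.18 on the log2 scale, none called, and with library size alone Anxa6 was at -0.0048. Leaving out libraries gave 1527 to 3222 genes called higher and 2189 to 3625 called lower in MK2, against 3235 and 3575 with all 4, 1 to 2 claudin-like tetraspan genes, 4 to 10 partner and trafficking genes and 1 to 4 growth arrest-specific genes. The lowest counts of genes came without MK1 replicate 1 (1527 higher and 2189 lower), and 1875 were called higher without MK1 replicate 2, and in both cases the lone MK1 library was assumed to vary like MK2. The Pmp22 level in MK1 ran from 67.7 to 81.2 CPM. With the replicate block, 2733 genes were called higher and 3175 lower. It ended the call of Gas5, of Tmem204 and of Syngr4 among the genes named. The deviations of same-numbered libraries correlated at -0.151, and the crossed pairing, added after the data had been seen, gave 3568 higher and 3886 lower. Depth limits what 0 counts of Pmp22 in MK2 allow to 0.119 and 0.106 CPM in the 2 libraries.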
